A study of Homo sapiens with 44 samples.

Results

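The genes described are the extracellular and membrane metalloproteinase families and their tissue inhibitors: the matrix metalloproteinases (MMP), the disintegrin metalloproteinases (ADAM), their secreted relatives with thrombospondin repeats (ADAMTS), the ADAMTS-like proteins (ADAMTSL) and the tissue inhibitors of metalloproteinases (TIMP). Members were all protein-coding genes whose GENCODE 29 symbol begins with one of these names followed by a number (ADAMTSL by the name alone), which gave 72 of the 58721 genes in the count tables. They comprised 23 MMP genes, 20 ADAM, 19 ADAMTS, 5 ADAMTSL and 4 TIMP genes, and MMP24OS, an open reading frame antisense to MMP24 that is not a protease. The rule uses the symbols alone and no measured value.

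RNA was sequenced from A549, a human lung adenocarcinoma cell line, and from tumours grown from it as xenografts. The lines het1, het2 and homo carry a p300 truncated at its TAZ2 domain, per the labels, and WT is the unedited A549. There were 3 libraries of cultured cells for each of het1, het2, homo and WT, and 4 of tumours collected at day 30 for each of the same lines. Tumours of het1 and of WT given SAHA (vorinostat, an inhibitor of histone deacetylases) or the vehicle DMSO for 4 weeks gave 4 libraries per group, which makes 12 groups and 44 libraries. Nothing in the labels says that replicates are different cultures or animals, and the p-values therefore cover the spread among these samples, which may be technical. The heterozygous genotype is represented by 2 lines and the homozygous one and WT by 1 each, and within a line the effects of the truncation and other properties of that line cannot be told apart. The sources used here give neither the host's age nor how reads from host cells were handled.

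MMPs, ADAMs and ADAMTS proteases share a zinc-dependent catalytic domain and are made as inactive proenzymes, many of which are opened by furin-like proprotein convertases. MMPs and ADAMTS proteases cut collagens, fibronectin, proteoglycans such as versican and other matrix proteins, while ADAMs mainly release the outer parts of membrane proteins such as growth factor precursors and adhesion molecules. The 4 TIMPs block the active site of most MMPs and of some ADAMs and ADAMTS proteases. p300 is an acetyltransferase recruited to promoters and enhancers by transcription factors, several of which it binds through TAZ2. In lung adenocarcinoma the MMPs are studied mainly for tissue invasion and matrix turnover.

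Stretches upstream of the transcription start are shown for 4 members as examples of members that moved in the same or in opposite ways: MMP7, the member that fell in every line in cells and in day 30 tumours, MMP10, its neighbour in the same gene cluster that moved the other way in cells, and ADAM23 and ADAMTS3, which rose in every line. Each is the 250 bases before the RefSeq start (build GRCh38.p14), 5′ to 3′ on the gene's own strand, in lower case, and capitals mark matches to TGANTCA, the AP-1 motif, or TATAAA, the TATA box motif. The MMP7 stretch is chr11:102530748-102530997 (minus strand), that of MMP10 chr11:102780629-102780878 (minus strand), that of ADAM23 chr2:206443282-206443531 (plus strand) and that of ADAMTS3 chr4:72569222-72569471 (minus strand).
MMP7: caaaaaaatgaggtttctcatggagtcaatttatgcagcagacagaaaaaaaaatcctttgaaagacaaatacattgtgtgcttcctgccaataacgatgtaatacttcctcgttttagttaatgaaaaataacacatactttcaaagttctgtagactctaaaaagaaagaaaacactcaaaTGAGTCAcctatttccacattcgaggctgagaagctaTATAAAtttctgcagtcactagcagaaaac
MMP10: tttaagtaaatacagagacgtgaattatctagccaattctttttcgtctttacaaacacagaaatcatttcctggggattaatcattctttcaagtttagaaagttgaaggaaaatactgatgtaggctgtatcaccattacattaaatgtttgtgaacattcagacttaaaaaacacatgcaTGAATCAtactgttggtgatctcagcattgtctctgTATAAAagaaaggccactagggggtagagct
ADAM23: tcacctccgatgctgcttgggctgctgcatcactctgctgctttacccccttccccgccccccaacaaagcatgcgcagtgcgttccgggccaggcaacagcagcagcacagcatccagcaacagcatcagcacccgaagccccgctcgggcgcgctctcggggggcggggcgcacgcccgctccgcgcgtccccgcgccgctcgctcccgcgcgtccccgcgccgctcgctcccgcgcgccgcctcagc
ADAMTS3: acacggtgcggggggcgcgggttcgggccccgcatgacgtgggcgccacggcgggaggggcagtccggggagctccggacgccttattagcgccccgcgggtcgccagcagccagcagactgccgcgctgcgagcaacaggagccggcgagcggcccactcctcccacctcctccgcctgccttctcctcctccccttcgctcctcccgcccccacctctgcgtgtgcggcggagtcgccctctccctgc
In MMP7 the AP-1 match TGAGTCA began 67 bases before the start and the TATA match 30 bases before it, and in MMP10 the match TGAATCA began 67 bases and TATAAA 31 bases before the start. Neither motif was found in ADAM23 and ADAMTS3. Counted over 300 bases, the printed stretch and the 50 bases after the start, these held 41 and 35 CpG dinucleotides, beside 4 in MMP7 and 2 in MMP10. Promoter windows of 300 bases (250 before to 50 after the start) were in the RefSeq table for 45 of the 72 members. TGANTCA, searched on both strands, was in 4 of the 45 (8.89%: ADAMTS12, MMP10, MMP20 and MMP7), beside 7.71% of all 35116 windows, and TATAAA in 8 of the 45 (17.8%), beside 11.5% of all windows. The motifs did not overlap each other in MMP7 and MMP10. The members' windows held a median of 26 CpG dinucleotides and all windows a median of 14. A motif match is a description of the sequence and says nothing of whether a factor binds there.

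Total counts per library were between 61168373 and 99593214. EP300, the gene of p300, checks the labels only in part because a count per gene cannot show a truncation. It averaged 185, 153 and 190.5 CPM (counts scaled to the library total after TMM) in het1, het2 and homo cells, against 115 CPM in WT cells (n = 3 each). Epithelial keratin and adhesion markers were present in every group, and their summed level was 2582 to 2702 CPM in het1 cells, 2019 to 2087 in het2, 832 to 849 in homo and 6473 to 6822 in WT cells. Of the libraries, WT SAHA replicates 4 and 6 and WT DMSO replicate 2 stood farthest from the others of their groups, with a spread of 0.29, 0.31 and 0.28 on the log2 scale over genes. Summed over 10 fibroblast markers, the level in tumours ran between 109.5 and 530.8 CPM, against 9.86 to 10.9 CPM in WT cells. Other markers also differed between the lines as day 30 tumours, and their part in the members' differences was not tested. The epithelial sum was 3506 to 4084 CPM in het1, 4716 to 5319 in het2 and 4650 to 5191 in homo, against 6772 to 7073 CPM in WT tumours. The sum of 5 keratinocyte markers was 29.4 to 34.15 CPM in het1, 46.1 to 56.4 in het2 and 34.1 to 39.7 in homo, against 104 to 128 CPM in WT tumours. For 6 endothelial markers it was 0.987 to 1.64 CPM in het1, 6.10 to 8.30 in het2 and 4.47 to 5.14 in homo, against 2.275 to 3.22 CPM in WT tumours. For 8 myeloid markers it was 18.9 to 22.45 CPM in het1, 28.35 to 36.4 in het2 and 23.1 to 25.7 in homo, against 34.05 to 48.1 CPM in WT tumours. The myeloid sum was already 12.2 to 12.6 CPM in WT cells and 13.6 to 14.3 in homo cells. Single markers did not all follow these sums. Of the myeloid markers 2 were called higher and 3 lower in het1 tumours, 2 and 2 in het2, and 4 and 1 in homo. Of the endothelial markers 2 were called higher and 1, PECAM1, lower in homo tumours. KRT1 was at 0 in het1, homo and WT day 30 tumours, EMCN in het1 and TYROBP in WT. Skeletal muscle markers varied within groups, for example from 0.634 to 154 CPM in WT DMSO tumours, and the adipocyte and lymphocyte sums were at most 2.14 and 0.859 CPM in any tumour. In bulk tumours fewer cells of a type and less RNA per cell cannot be told apart.

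Per kilobase of exon, the members with the highest mean over the 12 groups were TIMP1 (109 CPM per kb), ADAM9 (71.1), TIMP2 (38.7), MMP7 (21.8), ADAM10 (21.6), ADAM15 (11.7), MMP24 (11.3) and TIMP4 (8.15). Inhibitors and ADAM sheddases thus headed the list, and MMP7 and MMP24 were the MMP genes among these 8. A mean of 1 CPM was reached in all 12 groups by 19 members and in at least 1 group by 46. The 26 that stayed below 1 CPM in every group include the gelatinase MMP9, the stromelysin MMP3, the macrophage elastase MMP12, the neutrophil collagenase MMP8 and the aggrecanase ADAMTS5. The low-count filter kept 49 members in the cell table, 54 at day 30 and 56 under treatment, and 13 passed in none.

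In cells, 22 of the 72 members rose and 19 fell in het1 against WT, 32 rose and 11 fell in het2, and 31 rose and 15 fell in homo (edgeR's quasi-likelihood test, Benjamini-Hochberg adjusted p under 0.05 over all genes tested). Those counts are 56.9%, 59.7% and 63.9% of the members, beside 62.8%, 68.5% and 70.5% of all genes tested in the same comparisons. Of the 49 members tested, 83.7%, 87.8% and 93.9% were called. In day 30 tumours 23 members rose and 14 fell in het1 (26.8% and 24.8% of all genes tested), 20 rose and 10 fell in het2 (24.4% and 24.8%), and 24 rose and 10 fell in homo (27.1% and 27.7%). These are 51.4%, 41.7% and 47.2% of the members, beside a background of 51.5%, 49.2% and 54.8%, and of the 54 tested 68.5%, 55.6% and 63.0% were called. Members not tested for low counts are in the denominators of the shares of all 72 and not in those of the background, while the tested members include low genes that passed through the group where they are high. In het2 cells, where raised members outnumbered lowered ones most, raised genes made up 35.1% and lowered genes 33.3% of all genes tested. The median log2 fold change over the 49 members that passed the filter in cells was 0.50 in het1, 0.83 in het2 and 0.83 in homo, beside 0.03, 0.02 and 0.01 over all genes. Over the 54 at day 30 it was 0.04, 0.17 and 0.49, beside 0.02, -0.01 and 0.01. These medians describe the members and test nothing, since a low gene that passed through 1 high group had to differ.

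**Figure D1:**
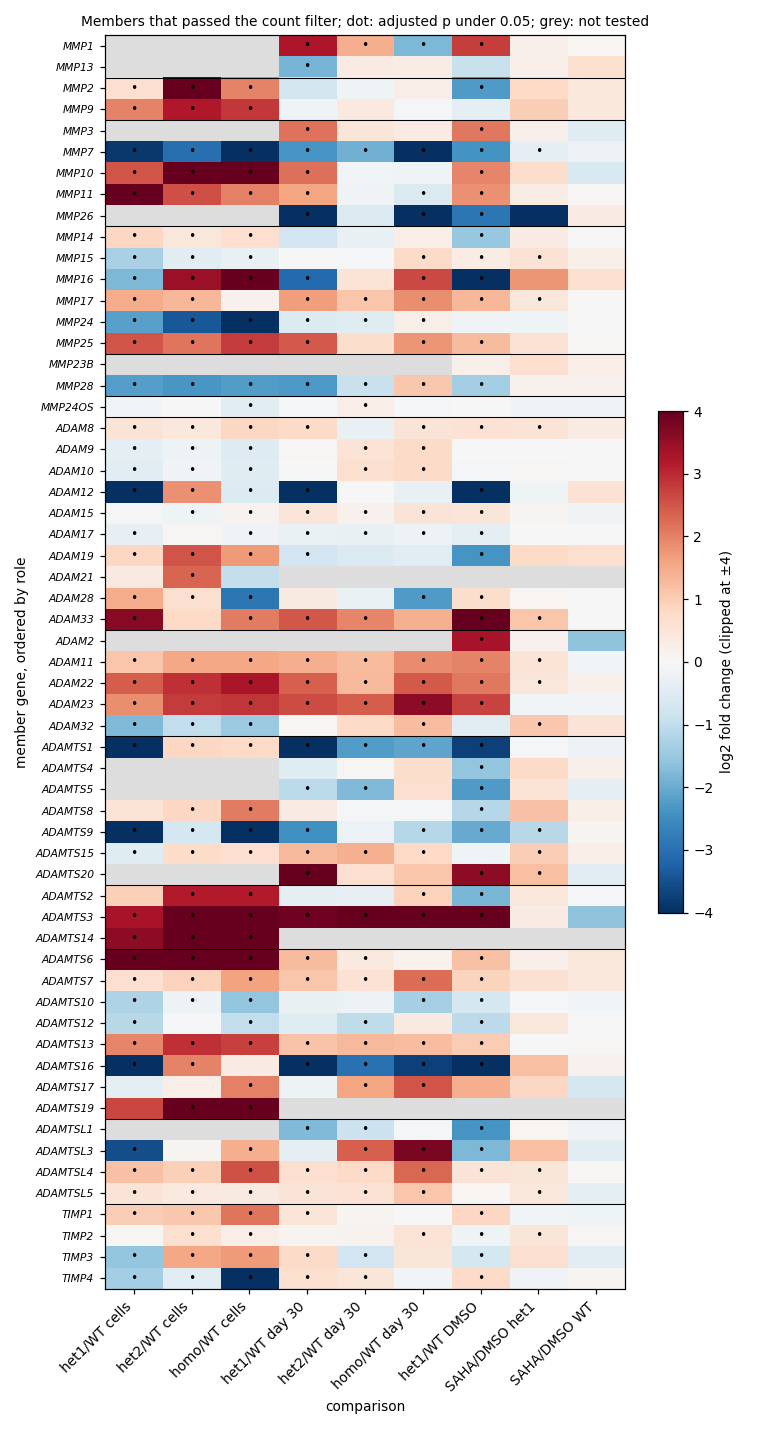
Log2 fold change of the members that passed the count filter (rows, ordered by role from collagenases at the top to TIMPs at the bottom) in 9 comparisons (columns, het1/WT standing for het1 over WT); red is higher, blue lower, a dot marks an adjusted p under 0.05 and grey a member not tested. MMP7 is blue and ADAM11, ADAM22, ADAM23, ADAMTS3 and ADAMTS13 are red in the 6 columns that compare a line with WT in cells and at day 30, and the last column, SAHA in WT tumours, has no dots.

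Among the secreted MMPs, MMP7 (matrilysin, which epithelial cells make and which cuts proteoglycans, E-cadherin and other MMP proenzymes) had the highest level per kilobase over the groups and fell in every edited line. In cells MMP7 (ENSG00000137673, chromosome 11, 102520508 to 102530753, minus strand) was at 2.93, 2.85 and 3.26 CPM in het1, 5.22, 5.75 and 5.26 in het2 and 0.0545, 0.131 and 0.0624 in homo, against 42.3, 45.4 and 42.6 CPM in WT. The groups did not overlap, and the level in homo cells was lower than in both het lines. The log2 fold changes against WT were -3.85 ± 0.07 (SE) in het1, -3.01 ± 0.07 in het2 and -9.01 ± 0.13 in homo cells, with edgeR adjusted p-values of 2.02e-29, 9.72e-28 and 4.71e-33. At day 30 MMP7 was at 22.4, 25.1, 26.1 and 22.9 CPM in het1, 32.2, 25.9, 40.2 and 33.5 in het2 and 3.31, 7.83, 3.67 and 5.63 in homo, against 153, 103, 117 and 123 CPM in WT. All edited tumours lay below all WT tumours, and the fall was again deepest in homo. The changes were, on the log2 scale, -2.36 ± 0.22, -1.91 ± 0.21 and -4.60 ± 0.25 (edgeR adjusted p = 5.16e-07, 4.41e-06 and 1.29e-09). The 3 comparisons of a table share their WT libraries.

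MMP7 is 1 of 9 members in a cluster on the minus strand of chromosome 11 (102520508 to 102955734, GRCh38), and none of its tested neighbours fell with it in all 3 lines. MMP10 (ENSG00000166670, chromosome 11, 102770503 to 102780628, minus strand), a stromelysin that cuts proteoglycans and fibronectin, was at 0.112, 0.122 and 0.266 CPM in het1 cells, 0.537, 0.478 and 0.471 in het2 and 1.17, 1.49 and 0.905 in homo, against 0.0322, 0.0413 and 0.0116 CPM in WT cells. All edited cells lay above all WT cells, from a low base. The fitted log2 fold changes were 2.53 ± 0.59, 4.10 ± 0.49 and 5.36 ± 0.45 (edgeR adjusted p = 3.57e-04, 6.62e-09 and 2.21e-12). Among day 30 tumours, it was at 10.2, 9.83, 8.29 and 6.73 CPM in het1, 1.93, 1.68, 1.72 and 1.60 in het2 and 1.11, 2.19, 0.934 and 2.48 in homo, against 2.09, 1.17, 2.11 and 2.17 CPM in WT, so that there only het1 stood apart (log2 fold change 2.21 ± 0.26, edgeR adjusted p = 1.20e-06). The het2 and homo tumours overlapped WT tumours, with log2 fold changes of -0.12 ± 0.26 and -0.17 ± 0.27.

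MMP1, the interstitial collagenase in the same cluster, was nearly silent in culture and differed between the lines as tumours. The highest cultured library was at 0.0840 CPM. In tumours at day 30 MMP1 (ENSG00000196611, chromosome 11, 102789920 to 102798160, minus strand) was at 5.38, 5.07, 5.63 and 5.73 CPM in het1, 1.74, 1.38, 2.10 and 1.11 in het2 and 0.0793, 0.238, 0.222 and 0.110 in homo, against 0.301, 0.236, 0.975 and 0.801 CPM in WT. Tumours of het1 and het2 lay above all WT tumours and rose (3.22 ± 0.34 and 1.44 ± 0.34 on the log2 scale, edgeR adjusted p = 3.52e-07 and 0.00185), while homo tumours fell and overlapped WT narrowly (log2 fold change -1.80 ± 0.44, edgeR adjusted p = 0.00215). MMP13, a further collagenase of the cluster, fell in het1 tumours, at 0.598, 0.421, 0.465 and 0.285 CPM against 1.59, 2.32, 0.778 and 1.72 CPM in WT. The MMP13 log2 fold change was -1.86 ± 0.61 (edgeR adjusted p = 0.0187). MMP13 lost its call without WT replicate 1 (edgeR adjusted p = 0.0534) or het1 replicate 4 (0.0577). In het1 day 30 tumours the cluster thus held a lowered MMP7 and MMP13 and a raised MMP1, MMP10 and MMP3, the last at 0.233, 0.237, 0.142 and 0.190 CPM in het1 against 0.0361, 0.0248, 0.0348 and 0.0747 CPM in WT.

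MMP11 (stromelysin-3, known in carcinomas mainly from stromal fibroblasts and activated by furin) lies outside this cluster and rose in cells of all 3 lines. It was at 1.71, 1.51 and 1.85 CPM in het1 cells, 0.645, 0.400 and 0.448 in het2 and 0.531, 0.175 and 0.296 in homo, against 0.145, 0.0275 and 0.0812 CPM in WT cells, with the highest values in het1 (log2 fold change 4.34 ± 0.38, edgeR adjusted p = 7.32e-12). In day 30 tumours het1 was again high, at 6.39, 7.23, 6.11 and 6.26 CPM against 2.14, 1.83, 2.51 and 2.22 CPM in WT. The MMP11 log2 fold change was 1.58 ± 0.22 (edgeR adjusted p = 5.03e-06). Homo tumours were at 0.809, 2.24, 1.20 and 1.59 CPM, overlapped WT and were called lower (log2 fold change -0.57 ± 0.23, edgeR adjusted p = 0.0404), a call lost under several alternatives, among them without WT replicate 2 (edgeR adjusted p = 0.104). MMP26, a further matrilysin, was at most 0.390 CPM in any library. It had 2 counts in het1 day 30 tumours, against 83 counts in WT day 30 tumours, a ratio 37.0-fold lower (95% exact binomial interval 9.93 to 311, counting error only).

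**Figure D2:**
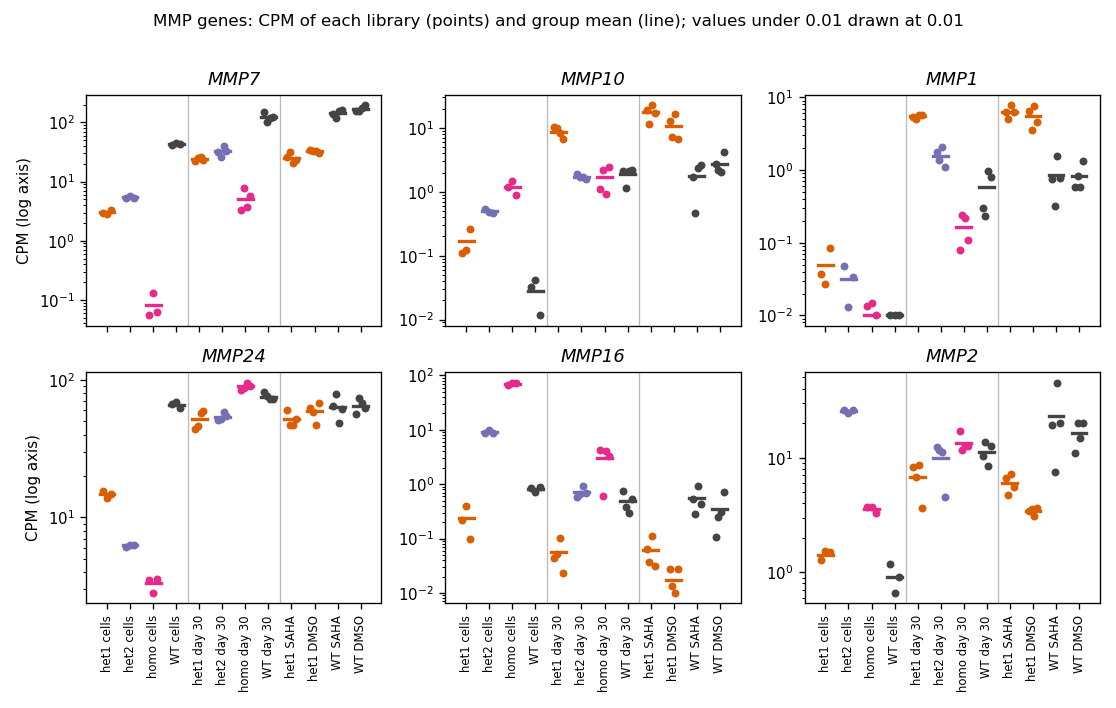
CPM of 6 MMP genes in each library (points, log axis, values under 0.01 drawn at 0.01) with the group mean (short line) for the 12 groups; orange is het1, purple het2, pink homo and dark grey WT, and vertical lines separate cells, day 30 tumours and treated tumours. MMP7 is below WT of the same setting in every edited group, and MMP1 and MMP10 are high in het1 tumours. MMP24 is low in edited cells and differs less from WT in tumours. The group mean of MMP16 is highest in homo cells and that of MMP2 in het2 cells. The highest single MMP2 library is WT SAHA replicate 6 (44.9 CPM).

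Of the gelatinases, which degrade denatured collagen and basement membrane collagen, MMP2 and MMP9 rose in cells of all 3 lines. MMP2 was at 26.0, 24.6 and 25.9 CPM in het2 cells, against 1.18, 0.661 and 0.905 CPM in WT cells. MMP2 changed by 4.82 ± 0.11 on the log2 scale (edgeR adjusted p = 1.03e-27). It stood at 1.27, 1.52 and 1.50 CPM in het1 cells and 3.69, 3.69 and 3.32 CPM in homo cells, also above all WT cells. MMP9 stayed below 1 CPM throughout, at 0.21 to 0.728 CPM in edited cells against 0.0232 to 0.129 CPM in WT cells. At day 30 neither gelatinase was called in any line against WT: MMP2 was at 8.21, 6.73, 8.56 and 3.62 CPM in het1, 12.3, 11.7, 11.2 and 4.52 in het2 and 16.9, 11.7, 12.6 and 12.6 in homo, against 10.3, 13.8, 8.49 and 12.6 CPM in WT. The het1 difference in MMP2 was just outside the threshold (log2 fold change -0.74 ± 0.31, edgeR adjusted p = 0.0621).

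All 6 membrane-type MMP genes passed the filter in cells, and the members anchored by a transmembrane segment did not move as one. MMP16, which activates MMP2 and cuts fibrin, had its highest level in homo cells. It was at 0.224, 0.394 and 0.0981 CPM in het1 cells, 8.59, 10.0 and 8.71 in het2 and 68.1, 71.5 and 73.0 in homo, against 0.854, 0.716 and 0.905 CPM in WT cells. No groups overlapped: het1 lay below WT (log2 fold change -1.78 ± 0.25, edgeR adjusted p = 2.94e-07), and het2 and homo above it (3.45 ± 0.12 and 6.42 ± 0.10 on the log2 scale, edgeR adjusted p = 1.86e-21 and 2.32e-30). Among day 30 tumours, MMP16 was at 0.0438, 0.0527, 0.103 and 0.0237 CPM in het1, 0.584, 0.669, 0.921 and 0.700 in het2 and 4.22, 0.615, 4.16 and 3.26 in homo, against 0.746, 0.385, 0.302 and 0.545 CPM in WT. Homo replicate 1 lay within the WT range and the other 3 homo tumours far above it (log2 fold change 2.63 ± 0.45, edgeR adjusted p = 1.07e-04), and het1 tumours were again lowest (log2 fold change -3.12 ± 0.67, edgeR adjusted p = 9.79e-04).

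MMP24, a membrane-type MMP known from neural tissue where it cuts N-cadherin, fell in all 3 lines in cells and differed less from WT in tumours. In cells MMP24 (ENSG00000125966, chromosome 20, 35226654 to 35277000, plus strand) was at 15.6, 13.9 and 14.7 CPM in het1, 6.14, 6.30 and 6.34 in het2 and 3.53, 2.82 and 3.59 in homo, against 66.5, 68.6 and 62.6 CPM in WT. The order het1, het2, homo from high to low held in every library. Against WT the log2 fold changes were -2.16 ± 0.05, -3.39 ± 0.06 and -4.31 ± 0.07 (edgeR adjusted p = 6.32e-26, 2.16e-30 and 5.07e-32). In tumours at day 30 it was at 43.8, 46.4, 57.0 and 59.9 CPM in het1, 51.4, 52.1, 58.4 and 54.6 in het2 and 84.9, 87.9, 95.2 and 90.8 in homo, against 81.0, 76.8, 72.5 and 72.1 CPM in WT. Homo tumours lay above WT (log2 fold change 0.25 ± 0.08, edgeR adjusted p = 0.0133), and het1 and het2 below it (-0.55 ± 0.08 and -0.48 ± 0.08). MMP24 shares 799 exonic bases with MMP24OS on the other strand, so their reads may be mixed if the counting did not use strand. MMP24OS itself had log2 fold changes of -0.10, -0.01 and -0.45 in het1, het2 and homo cells.

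MMP15, a transmembrane member of epithelia, fell in cells of all 3 lines, most in het1 at 9.42, 8.72 and 8.67 CPM against 20.8, 23.0 and 21.7 CPM in WT. The MMP15 log2 fold change was -1.29 ± 0.06 (edgeR adjusted p = 7.38e-18). The lipid-anchored members rose in culture, MMP17 in both het lines and MMP25 in all 3 lines. In het1 cells MMP17 was at 11.7, 10.2 and 12.1 CPM against 4.74, 3.64 and 3.85 CPM in WT, and MMP25 at 1.68, 1.64 and 1.71 CPM against 0.403, 0.138 and 0.337 CPM in WT. MMP17 also rose in day 30 tumours of all 3 lines. In het1, het2 and homo tumours its log2 fold changes were 1.68 ± 0.13, 1.10 ± 0.13 and 1.85 ± 0.13 (edgeR adjusted p = 1.18e-09, 5.71e-07 and 2.43e-10). MMP28 (epilysin, expressed in epithelia such as lung and skin) fell in cells of all 3 lines, to 0.238 to 0.336 CPM in het1, 0.202 to 0.346 in het2 and 0.234 to 0.312 in homo, against 1.24 to 1.30 CPM in WT. In day 30 tumours it was at 2.52, 2.99, 3.15 and 3.07 CPM in het1, 6.93, 7.70, 8.90 and 7.71 in het2 and 29.7, 22.6, 39.8 and 29.3 in homo, against 14.9, 13.8, 17.2 and 12.0 CPM in WT. The tumours of the 4 lines did not overlap: homo was highest (log2 fold change 1.07 ± 0.14, edgeR adjusted p = 2.93e-06), then WT, het2 (log2 fold change -0.89 ± 0.14, edgeR adjusted p = 4.05e-05) and het1 (log2 fold change -2.30 ± 0.15, edgeR adjusted p = 5.00e-10).

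Among the catalytic ADAMs, the sheddases ADAM10 (which cuts NOTCH1, CD44 and E-cadherin) and ADAM17 (which releases TNF and EGF receptor ligands) are expressed by most cells, as is ADAM9. ADAM10 was at 315, 319 and 297 CPM in het1 cells, 390.4, 388 and 396 in het2 and 309, 297 and 317 in homo, against 409.6, 439 and 439.8 CPM in WT cells. All edited cells lay below all WT cells, with a log2 fold change of -0.48 ± 0.03 in homo (edgeR adjusted p = 9.64e-16). At day 30 ADAM10 was at 274, 283, 296 and 292 CPM in het1, 467, 454, 422 and 462 in het2 and 524, 456, 499 and 479.8 in homo, against 295, 294, 282 and 281 CPM in WT. There het2 and homo lay above WT (0.65 ± 0.05 and 0.77 ± 0.05, edgeR adjusted p = 2.03e-09 and 8.67e-11), and het1 overlapped it (-0.01 ± 0.05).

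ADAM9 changed in the same directions in het2 and homo, at a higher level. It was at 538, 548.8 and 523 CPM in het1 cells, 596, 610.2 and 616 in het2 and 489, 492 and 497 in homo, against 676, 716 and 721 CPM in WT cells. At day 30 it was at 386, 395, 381 and 380.0 CPM in het1 tumours, 613, 519, 493 and 534 in het2 and 683, 630.4, 623 and 614 in homo, against 372, 378, 372 and 364 CPM in WT tumours. Against WT it fell in cells of every line (log2 fold changes -0.39, -0.21 and -0.52, each ± 0.03) and rose in het2 and homo tumours (0.54 ± 0.06 and 0.78 ± 0.06, edgeR adjusted p = 1.57e-07 and 4.37e-10). Het1 tumours lay just above all WT tumours without a call (0.05 ± 0.06, edgeR adjusted p = 0.469). ADAM17 fell in het1 and homo cells and in tumours of all 3 lines by small amounts, its log2 fold changes in day 30 tumours being -0.28 in het1, -0.28 in het2 and -0.20 in homo. ADAM17 shares 1323 exonic bases with IAH1. ADAM15, which carries an integrin-binding motif, rose in day 30 tumours of all 3 lines, to 97.1 to 103 CPM in het1, 73.6 to 86.5 in het2 and 92.8 to 112 in homo, against 66.4 to 75.6 CPM in WT, with an overlap between het2 and WT. The het2 call was lost without WT replicate 1 (edgeR adjusted p = 0.0622) or het2 replicate 0 (0.0574).

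ADAM12 was lowest in het1 and ADAM28 in homo, in cells and in day 30 tumours. ADAM12, a disintegrin of mesenchymal cells and placenta that cuts insulin-like growth factor binding proteins, was at 0.199, 0.326 and 0.210 CPM in het1 cells, 17.3, 17.8 and 17.0 in het2 and 3.48, 3.05 and 3.60 in homo, against 4.40, 5.63 and 4.61 CPM in WT cells. Het1 lay far below WT (log2 fold change -4.31 ± 0.16, edgeR adjusted p = 2.77e-21) and het2 above it (log2 fold change 1.83 ± 0.09, edgeR adjusted p = 1.39e-18). Among day 30 tumours, het1 was again low, at 0.102, 0.290, 0.155 and 0.0830 CPM against 2.65, 2.58, 2.32 and 2.75 CPM in WT. ADAM12 changed by -4.02 ± 0.28 on the log2 scale (edgeR adjusted p = 1.70e-10). ADAM28, described in lymphocytes and in lung carcinoma cells, fell in homo tumours to 3.33, 5.52, 3.62 and 4.31 CPM against 21.9, 17.1, 19.6 and 21.3 CPM in WT. ADAM28 changed by -2.25 ± 0.16 on the log2 scale (edgeR adjusted p = 1.45e-09). It had been under 2 CPM in every cultured library, where homo was lowest too (log2 fold change -2.88 ± 0.42, edgeR adjusted p = 3.49e-07).

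Of the 8 ADAMs without a catalytic zinc site 4 passed the filter in cells, and 3 of these rose and 1 fell in every line there. ADAM11, ADAM22 and ADAM23 are neuronal surface proteins, and ADAM22 and ADAM23 bind the secreted protein LGI1 at synapses. All 3 genes rose in every edited line in cells and at day 30. ADAM23 (ENSG00000114948, chromosome 2, 206443539 to 206621130, plus strand) was at 54.9, 56.6 and 53.7 CPM in het1 cells, 106, 106 and 102 in het2 and 113, 107 and 109.6 in homo, against 16.0, 13.9 and 15.3 CPM in WT cells. In tumours at day 30 it was at 16.5, 16.2, 15.6 and 17.2 CPM in het1, 16.2, 13.8, 13.1 and 14.2 in het2 and 38.7, 23.5, 37.7 and 30.0 in homo, against 2.85, 3.45, 2.07 and 2.41 CPM in WT. Every edited library lay above every WT library of its table, with log2 fold changes of 1.87 ± 0.04, 2.80 ± 0.04 and 2.87 ± 0.04 in cells and 2.61 ± 0.16, 2.41 ± 0.16 and 3.59 ± 0.16 in tumours. The largest of the 6 edgeR adjusted p-values was 1.03e-09, in het2 tumours.

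ADAM22 was at 15.6, 14.8 and 14.1 CPM in het1 cells, 20.5, 20.6 and 22.0 in het2 and 26.2, 26.0 and 27.7 in homo, against 2.59, 3.04 and 2.69 CPM in WT cells. At day 30 it was at 16.6, 17.0, 14.8 and 15.4 CPM in het1 tumours, 8.21, 7.07, 8.03 and 6.49 in het2 and 18.0, 14.8, 17.2 and 16.6 in homo, against 2.49, 3.81, 2.74 and 3.02 CPM in WT tumours. Again no edited library overlapped WT, and het2 tumours had the smallest rise (log2 fold change 1.31 ± 0.11, edgeR adjusted p = 6.27e-09). ADAM11 changed less, with log2 fold changes of 1.10, 1.56 and 1.54 in het1, het2 and homo cells and 1.45, 1.25 and 1.88 in their tumours. ADAM32, a testis-rich gene without the zinc site, went the other way in cells, at 0.324 to 0.408 CPM in het1, 0.585 to 0.751 in het2 and 0.438 to 0.477 in homo, against 1.08 to 1.61 CPM in WT (log2 fold change -0.98 ± 0.22, edgeR adjusted p = 2.67e-04 for het2), and rose in homo tumours, at 0.374 to 0.699 CPM against 0.144 to 0.310 CPM in WT. ADAM32 changed by 1.24 ± 0.34 on the log2 scale (edgeR adjusted p = 0.00371).

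Of the 3 procollagen N-proteinases, which trim fibrillar procollagens before fibrils form, ADAMTS3, which also activates VEGF-C, rose in every line. ADAMTS3 (ENSG00000156140, chromosome 4, 72280969 to 72569386, minus strand) was at 0.561, 0.421 and 0.658 CPM in het1 cells, 8.05, 8.90 and 7.92 in het2 and 7.62, 7.02 and 7.91 in homo, against 0, 0.0826 and 0.0696 CPM in WT cells. In day 30 tumours it was at 0.569, 0.461, 0.297 and 0.498 CPM in het1, 3.52, 2.99, 2.39 and 2.85 in het2 and 6.17, 4.67, 6.70 and 6.07 in homo, against 0.0602, 0.0124, 0.0232 and 0.0214 CPM in WT. WT was close to 0 and every edited library above it, and het1 lay below both other edited lines (log2 fold changes 3.29 ± 0.37, 7.21 ± 0.22 and 7.07 ± 0.23 in cells and 3.90 ± 0.35, 6.58 ± 0.29 and 7.59 ± 0.29 in tumours). The largest of these edgeR adjusted p-values was 9.48e-09, in het1 tumours. ADAMTS14 had 72 counts in het2 cells, against 1 count in WT cells (ratio 63.5, 95% exact binomial interval 11.0 to 2542, counting error only). ADAMTS2 rose in het2 and homo cells and in homo tumours, there to 1.76, 2.05, 1.26 and 1.95 CPM against 0.915, 1.22, 0.847 and 0.737 CPM in WT. The ADAMTS2 log2 fold change was 0.92 ± 0.25 (edgeR adjusted p = 0.00397).

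The proteoglycanases, the ADAMTS enzymes that cut versican and aggrecan, included deep falls in het1. ADAMTS9 was at 0.0249, 0.0272 and 0.0280 CPM in het1 cells, 6.16, 6.06 and 6.04 in het2 and 0.313, 0.540 and 0.312 in homo, against 9.76, 9.93 and 10.2 CPM in WT cells. It was at 2.77, 2.11, 3.11 and 2.22 CPM in het1 tumours, 11.5, 12.5, 12.8 and 10.6 in het2 and 5.36, 5.73, 8.70 and 5.66 in homo, against 13.9, 14.7, 14.7 and 12.7 CPM in WT tumours. Het1 was lowest in both settings (-8.46 ± 0.21 in cells and -2.46 ± 0.15 in tumours on the log2 scale, edgeR adjusted p = 3.68e-26 and 2.44e-11), homo followed, and het2 tumours were not called against WT (edgeR adjusted p = 0.151). ADAMTS1 was low throughout in culture and had 2 counts in het1 cells, against 131 counts in WT cells (66.8-fold lower, 95% exact binomial interval 18.1 to 557). At day 30 it was at 0.321, 0.329, 0.258 and 0.154 CPM in het1, 1.38, 1.81, 1.95 and 1.37 in het2 and 1.68, 2.01, 1.62 and 1.75 in homo, against 5.87, 8.80, 7.78 and 8.19 CPM in WT. All 3 edited lines fell there without overlap (-4.86 ± 0.21, -2.23 ± 0.17 and -2.12 ± 0.17, edgeR adjusted p = 1.09e-13, 8.48e-10 and 1.01e-09). Its rises in het2 and homo cells (0.83 ± 0.27 and 0.81 ± 0.28) lost their calls without WT replicate 3 (edgeR adjusted p = 0.0567 and 0.0665), and also without het2 replicate 2 (0.0697) and homo replicate 3 (0.0944). ADAMTS15 rose in the day 30 tumours of every line. It was at 5.87 to 9.65 CPM in het1, 6.59 to 10.1 in het2 and 4.42 to 6.15 in homo. WT day 30 tumours were at 2.25 to 3.57 CPM. In tumours given DMSO it was not called, at 5.15 to 6.30 CPM in het1 and 5.44 to 7.43 CPM in WT.

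Of the other ADAMTS genes, ADAMTS6, a fibrillin-associated protease known from mouse heart development, rose in cells to 2.39, 3.23 and 2.14 CPM in het1, 3.20, 3.16 and 3.59 in het2 and 6.81, 6.06 and 6.54 in homo, against 0.129, 0.0689 and 0.116 CPM in WT. Among day 30 tumours, WT had 4.31, 4.51, 3.46 and 4.26 CPM itself, and the differences were smaller (1.25 ± 0.12, 0.40 ± 0.12 and 0.13 ± 0.12 in het1, het2 and homo on the log2 scale, the last not called). ADAMTS16, known from rat kidney and blood pressure genetics, was at 0.0374, 0.0951 and 0.0840 CPM in het1 cells, 5.37, 6.07 and 5.58 in het2 and 2.15, 1.69 and 1.58 in homo, against 1.61, 1.50 and 1.22 CPM in WT cells. Het2 was thus high and het1 low in culture. As day 30 tumours all 3 lines were low, at 0.131, 0.158, 0.220 and 0.0475 CPM in het1, 0.287, 0.429, 0.292 and 0.178 in het2 and 0.301, 0.126, 0.152 and 0.152 in homo, against 2.72, 2.55, 2.47 and 1.86 CPM in WT (-4.11 ± 0.33, -2.99 ± 0.29 and -3.73 ± 0.32, largest edgeR adjusted p = 3.24e-08).

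ADAMTS13, the von Willebrand factor protease, and ADAMTS7, which cuts cartilage oligomeric matrix protein, rose in every line in cells and at day 30. ADAMTS13 was at 1.30 to 1.89 CPM in het1 cells, 3.27 to 3.31 in het2 and 2.67 to 3.05 in homo, against 0.383 to 0.499 CPM in WT cells, and its log2 fold changes in tumours were 1.13 ± 0.20, 1.29 ± 0.20 and 1.23 ± 0.20. ADAMTS7, whose reads may be split with pseudogene copies, was highest in homo, at 7.29, 7.07 and 8.14 CPM in homo cells against 2.38, 2.34 and 2.55 CPM in WT cells and 9.26, 9.03, 12.1 and 9.08 CPM in homo tumours against 2.01, 2.52, 1.56 and 2.34 CPM in WT tumours.

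The ADAMTSL proteins lack a protease domain and several bind fibrillin microfibrils. ADAMTSL4 and ADAMTSL5 rose in every line in cells and at day 30. ADAMTSL4, which shares 736 exonic bases with its antisense RNA, was at 7.44, 7.43 and 6.62 CPM in homo cells against 1.14, 0.992 and 1.49 CPM in WT cells and at 18.3, 22.2, 26.7 and 23.0 CPM in homo tumours against 5.50, 4.30, 5.01 and 3.64 CPM in WT tumours, and in the het lines its log2 fold changes lay between 0.66 and 1.18. ADAMTSL5 changed by 0.36 to 1.11 on the log2 scale, and lost its call in homo cells without WT replicate 2 or 3 or homo replicate 1 and in het2 cells without het2 replicate 1. ADAMTSL3 marked homo and het2 tumours, at 1.12, 0.709, 0.786 and 0.662 CPM in het2 and 2.43, 2.31, 2.12 and 1.59 CPM in homo, against 0.144, 0.137, 0.128 and 0.203 CPM in WT (2.41 ± 0.29 and 3.76 ± 0.28, edgeR adjusted p = 5.68e-07 and 3.98e-10).

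All 4 inhibitor genes were detected, and they did not move together. TIMP1, a secreted inhibitor that also acts as a growth factor, was at 101, 101 and 109 CPM in het1 cells, 114, 111 and 109 in het2 and 229, 231 and 236 in homo, against 53.9, 50.9 and 51.6 CPM in WT cells. Every edited cell library lay above WT, homo most (log2 fold change 2.15 ± 0.03, edgeR adjusted p = 1.51e-32). In tumours at day 30 only het1 rose (log2 fold change 0.48 ± 0.07, edgeR adjusted p = 1.03e-05), and the other tumours overlapped WT, at 178, 180.2, 191 and 189 CPM in het2 and 155, 181, 165 and 176 in homo against 201, 149, 172 and 161 CPM in WT. TIMP2, which forms a complex with MMP14 that activates MMP2, rose in het2 cells to 282, 281 and 269 CPM against 176, 184 and 172 CPM in WT (log2 fold change 0.65 ± 0.03, edgeR adjusted p = 8.75e-20) and in homo tumours to 224, 288, 225 and 266 CPM against 165, 179, 175 and 173 CPM in WT. In homo tumours the TIMP2 log2 fold change was 0.54 ± 0.08 (edgeR adjusted p = 9.43e-06). TIMP2 was also called higher in homo cells, without overlap with WT cells.

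TIMP4, an inhibitor known mainly from heart and brain, fell in cells of every line and nearly to 0 in homo. It was at 3.63, 3.26 and 3.35 CPM in het1 cells, 6.40, 6.66 and 6.04 in het2 and 0.0818, 0.146 and 0.265 in homo, against 8.56, 9.02 and 8.49 CPM in WT cells (-1.35 ± 0.10, -0.45 ± 0.09 and -5.74 ± 0.17 on the log2 scale, edgeR adjusted p = 1.89e-13, 8.24e-05 and 2.60e-24). In day 30 tumours it was at 22.3, 22.7, 23.6 and 24.5 CPM in het1, 19.6, 20.8, 22.0 and 22.5 in het2 and 13.7, 13.9, 13.5 and 14.4 in homo, against 15.7, 16.1, 14.6 and 14.0 CPM in WT. There het1 and het2 lay above WT (0.63 ± 0.06 and 0.49 ± 0.06) and homo was not called against WT (-0.12 ± 0.06). TIMP3, the matrix-bound inhibitor, was below 1.2 CPM in all cultured libraries and at 2.80 to 15.0 CPM in day 30 tumours. In cells it was called lower in het1 and higher in het2 and homo than in WT. Its day 30 calls, higher in het1 (0.77 ± 0.28) and lower in het2 (-0.76 ± 0.29), had edgeR adjusted p-values of 0.0337 and 0.0432 and were lost without any of several single libraries, for example without WT replicate 1 (0.0688 and 0.0728).

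**Figure D3:**
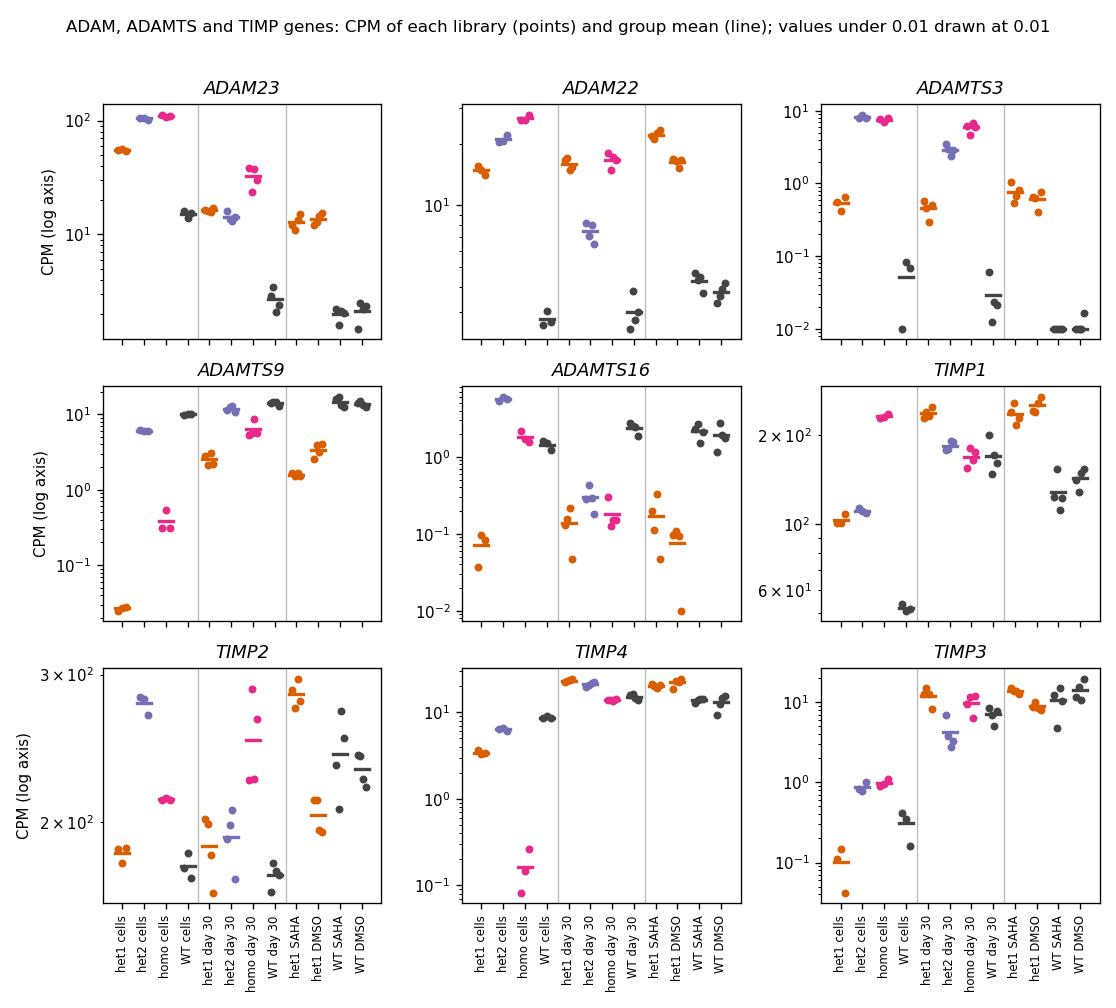
CPM of 9 ADAM, ADAMTS and TIMP genes in each library (points, log axis, values under 0.01 drawn at 0.01) with the group mean (short line); orange is het1, purple het2, pink homo and dark grey WT, and vertical lines separate cells, day 30 tumours and treated tumours. ADAM22, ADAM23 and ADAMTS3 are above WT in all edited groups, ADAMTS9 is lowest in het1, and TIMP4 is near 0 in homo cells and at 13.5 to 14.4 CPM in homo tumours.

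Taking cells and day 30 tumours side by side, 19 changes against WT in 14 genes were called in opposite directions in the same line, 14 of them without overlap of libraries in either setting. Of the 46 members tested in both settings this is 8.7% in het1, 15.2% in het2 and 17.4% in homo, beside 7.96%, 11.2% and 12% of the 20616 genes tested in both. Without overlap it is 6.52%, 8.7% and 15.2% of the members, beside 6.69%, 9.05% and 10.2% of those genes. Over the 3 lines together the shares were 13.8% of members beside 10.4% of all genes, and 10.1% beside 8.63% without overlap, so both were near the background. The genes were ADAM9, ADAM10, ADAM15, ADAM19, ADAM32, ADAMTS1, ADAMTS15, ADAMTS16, MMP11, MMP15, MMP24, MMP28, TIMP3 and TIMP4. MMP28 in homo had a log2 fold change of 1.07 ± 0.14 in tumours and -2.25 ± 0.28 in cells. ADAMTS16 in het2 is the reverse case, at -2.99 ± 0.29 in tumours and 1.98 ± 0.14 in cells. Cells and tumours were counted in separate tables and fitted apart, so these differences between settings were not tested.

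**Figure D4:**
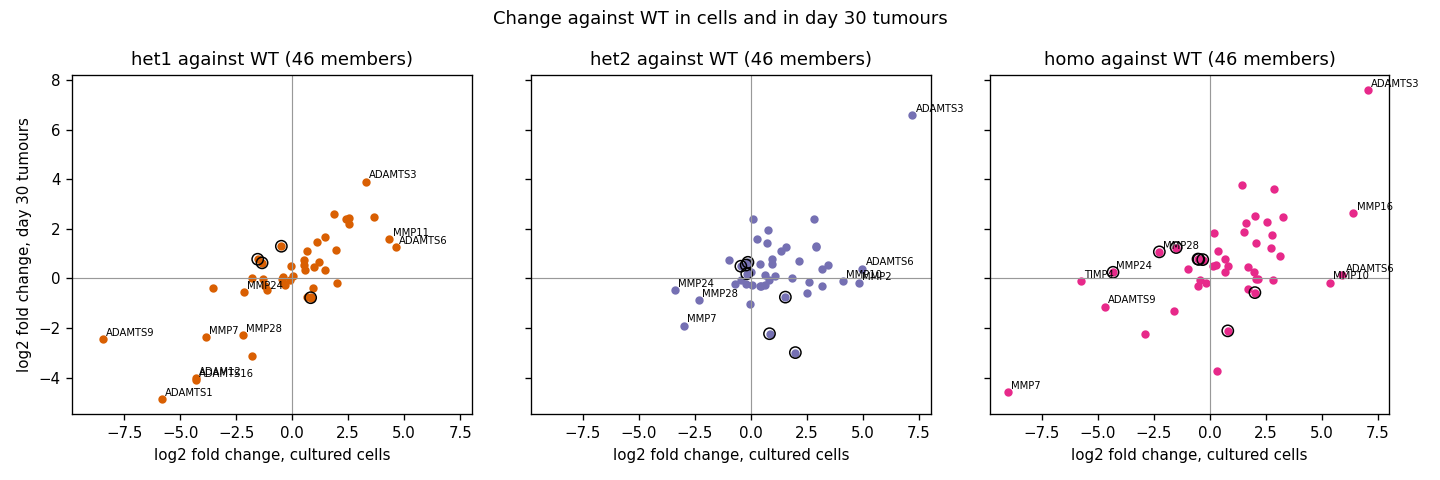
Log2 fold change against WT in cultured cells (x axis) and in day 30 tumours (y axis) for the 46 members tested in both, in het1, het2 and homo (panels); each point is a gene, and black rings mark genes called in opposite directions, and names mark changes beyond 4 in either setting and MMP7, MMP24, MMP28 and ADAMTS3. MMP7 lies at the lower left in all 3 panels and ADAMTS3 at the upper right, and MMP28 and MMP24 in homo lie left of 0 and above 0.

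Homo was also set against the mean of het1 and het2. In cells 25 of the 72 members were higher and 14 lower in homo (54.2% of members and 79.6% of those tested, beside 49.9% of all genes tested), and in day 30 tumours 28 were higher and 10 lower (52.8% and 70.4%, beside 44.7%). MMP16 had the greatest fitted rise of all members in both, by 5.58 ± 0.08 in cells and 3.92 ± 0.41 in tumours on the log2 scale. MMP7 was lower in homo in both (-5.58 ± 0.17 and -2.46 ± 0.22), as were MMP11 (-1.44 ± 0.29 and -1.30 ± 0.20) and TIMP4 (-4.85 ± 0.17 and -0.68 ± 0.06). For MMP11, homo lay below het1 but overlapped het2 in both settings. In cells homo was at 0.175 to 0.531 CPM and het2 at 0.400 to 0.645. In day 30 tumours homo was at 0.809 to 2.24 CPM and het2 at 1.36 to 2.63. MMP16 in homo tumours also overlapped het2 tumours. In tumours MMP28 (2.66 ± 0.12), ADAMTSL3 (2.75 ± 0.21) and ADAMTS3 (2.35 ± 0.15) were higher in homo, and MMP1 (-4.13 ± 0.38) and ADAM28 (-2.29 ± 0.15) lower. The largest edgeR adjusted p-value among the changes named in this comparison was 7.48e-05, for MMP11 in cells.

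In the tumours of the treatment experiment, het1 given DMSO differed from WT given DMSO in 45 members, 23 higher and 22 lower (62.5% of members and 80.4% of those tested, beside 54% of all genes tested, 27.3% higher and 26.8% lower). MMP7 was at 34.2, 33.3, 32.5 and 30.5 CPM in het1 DMSO tumours, against 153, 156, 175 and 195 CPM in WT DMSO tumours. MMP7 changed by -2.38 ± 0.12 on the log2 scale (edgeR adjusted p = 2.00e-10). MMP1 was higher in het1, at 6.42, 3.60, 7.55 and 4.51 CPM against 0.587, 0.825, 0.585 and 1.32 CPM in WT (log2 fold change 2.75 ± 0.38, edgeR adjusted p = 2.20e-05), as was MMP10, at 12.6, 7.09, 16.6 and 6.59 CPM against 2.71, 2.20, 2.02 and 4.13 CPM in WT. The MMP10 log2 fold change was 1.96 ± 0.44 (edgeR adjusted p = 0.00198). ADAM23 (2.69 ± 0.15), ADAM22 (2.12 ± 0.08) and ADAM11 (1.99 ± 0.18) were higher, and ADAM12 (-4.58 ± 0.34), ADAMTS1 (-3.74 ± 0.27), ADAMTS9 (-2.005 ± 0.13) and ADAMTS16 (-4.63 ± 0.49) lower in het1 than in WT on the log2 scale. These tumours are separate libraries from those of day 30 and gave the same directions as het1 day 30 tumours for the 10 genes just named. Those genes were picked for large or shared changes, most of them in these same comparisons, so their shared direction is no independent support. ADAMTS15, ADAMTSL5, MMP13 and MMP24 were called in het1 at day 30 and not in het1 given DMSO. TIMP3 was called in opposite directions, higher in het1 at day 30 (log2 fold change 0.77) and lower in het1 given DMSO. The lower call was also lost without any of several single libraries, for example without WT DMSO replicate 3 (log2 fold change -0.65, edgeR adjusted p = 0.0921). ADAMTS3 had 179 counts in het1 DMSO tumours, against 1 count in WT DMSO tumours, in replicate 8 (ratio 173.8, 95% exact binomial interval 30.8 to 6903).

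SAHA left the members of WT tumours without a call: edgeR called 0 of 72 and 0% of all genes tested, with 5 members at an unadjusted p under 0.05, and DESeq2 also called 0 members, with 7 at an unadjusted p under 0.05. Without WT SAHA replicates 4 and 6, the libraries farthest from their group, the edgeR count was again 0, with 5 members at an unadjusted p under 0.05. In het1 tumours 12 members rose and 2 fell with SAHA (19.4% of members and 25% of those tested, beside 16.8% of all genes tested, 7.68% raised and 9.15% lowered). Of the 14, the calls of ADAMTS9, MMP15 and TIMP2 held under every alternative run, and the count was 9, 6, 8, 8 and 9 without het1 DMSO replicate 3 or 5 or het1 SAHA replicate 1, 3 or 6.

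ADAMTS9, low in het1 already, fell further with SAHA. The tumours' summed fibroblast markers were at 173 to 252 CPM in het1 SAHA tumours, against 124 to 143 CPM in het1 DMSO tumours. Of these 10 markers 2 were called higher with SAHA (PDGFRB and THY1) and 1 lower (PDGFRA). The part of fibroblasts in the changes with SAHA was not tested. ADAMTS9 was at 1.68, 1.52, 1.64 and 1.52 CPM in het1 SAHA tumours, against 2.52, 3.92, 3.19 and 4.02 CPM in het1 DMSO tumours. The ADAMTS9 log2 fold change was -1.10 ± 0.14 (edgeR adjusted p = 4.46e-05). In WT it was at 15.8, 17.2, 13.3 and 12.3 CPM with SAHA, against 14.2, 14.9, 13.2 and 12.4 CPM with DMSO, and those groups overlapped. The difference between the SAHA effects of het1 and WT was -1.19 ± 0.19 on the log2 scale (edgeR adjusted p = 0.00154). TIMP2 was at 287, 274, 297 and 279 CPM in het1 SAHA tumours, against 213, 212, 196 and 195 CPM in het1 DMSO tumours. The TIMP2 log2 fold change was 0.48 ± 0.07 (edgeR adjusted p = 1.06e-04). In WT it was at 234, 207, 272 and 252 CPM with SAHA, against 240.4, 239.6, 225 and 220.4 CPM with DMSO, and its difference between lines was 0.42 ± 0.09 (edgeR adjusted p = 0.0159).

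MMP15 was at 32.0, 28.2, 30.5 and 35.1 CPM in het1 SAHA tumours, against 22.5, 18.8, 21.0 and 21.7 CPM in het1 DMSO tumours. The MMP15 log2 fold change was 0.58 ± 0.08 (edgeR adjusted p = 6.16e-05). It was at 21.6, 19.5, 20.0 and 19.3 CPM in WT SAHA tumours, against 18.7, 18.0, 16.7 and 15.4 CPM in WT DMSO tumours, so WT also lay higher with SAHA without overlap, and its difference between lines was not called (edgeR adjusted p = 0.0638). ADAM11 (0.56 ± 0.16), ADAMTS15 (0.98 ± 0.27) and ADAM8 (0.54 ± 0.18) also rose with SAHA in het1 on the log2 scale, as did ADAM22, ADAM32, ADAM33, ADAMTS20, ADAMTSL4, ADAMTSL5 and MMP17, while MMP7 fell with overlap, to 25.6, 31.5, 20.3 and 23.1 CPM, against 34.2, 33.3, 32.5 and 30.5 CPM with DMSO (log2 fold change -0.38 ± 0.12, edgeR adjusted p = 0.0442). For ADAM8 and MMP7 the adjusted p passed the threshold by little, and both calls were lost under 10 alternatives. The calls of ADAM11, ADAM32, ADAM33, ADAMTS15, ADAMTS20, ADAMTSL4, ADAMTSL5 and MMP17 were each lost under several alternatives too. That of ADAM22 was lost with a replicate block. Across the lines 3 members differed in their SAHA effect (4.17% of members and 5.36% of those tested, beside 4.72% of all genes tested): ADAMTS9, TIMP2 and ADAMTSL5 (log2 fold change 0.79 ± 0.19, edgeR adjusted p = 0.0257). Without WT SAHA replicates 4 and 6 there were 5, with ADAMTS15 (0.83, edgeR adjusted p = 0.0108) and TIMP3 (0.98, 0.038) added. ADAMTSL5 was at 3.54 to 4.70 CPM with SAHA and 2.55 to 3.65 with DMSO in het1, and at 1.91 to 2.63 and 2.66 to 3.37 CPM in WT. WT thus lay lower with SAHA, without overlap. The ADAMTSL5 difference lost its call without WT SAHA replicate 3 (edgeR adjusted p = 0.0561), het1 DMSO replicate 3 (0.0539) or 5 (0.0576), or het1 SAHA replicate 1 (0.0641). With a replicate block ADAMTS9, TIMP2 and ADAMTSL5 all lost this call (edgeR adjusted p = 0.088, 0.323 and 0.27).

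MMP2, MMP14 and ADAM19 are made by fibroblasts as well as by tumour cells, and in tumours they are given beside the summed level of the 10 fibroblast markers. WT SAHA replicate 6 had the highest marker sum, 530.8 CPM, with 44.9 CPM of MMP2, 25.7 of MMP14 and 123 of ADAM19. WT SAHA replicate 4 had the lowest of its group, 186 CPM, with 7.56, 10.0 and 23.2 CPM of the same genes. Among het2 day 30 tumours replicate 4 had the lowest sum, 109.5 CPM, and 4.52 CPM of MMP2, 4.54 of MMP14 and 8.29 of ADAM19. Homo day 30 replicate 0 had a sum of 501 CPM, with 16.9 CPM of MMP2 and 22.1 of MMP14 but 13.6 of ADAM19, so ADAM19 was not high in every library with a high sum.

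The marker sum was 124 to 143 CPM in het1 DMSO tumours, against 254 to 368 CPM in WT DMSO tumours. In that comparison MMP2 was at 3.43, 3.60, 3.11 and 3.66 CPM in het1 against 11.0, 20.2, 14.8 and 20.2 CPM in WT. MMP2 changed by -2.26 ± 0.42 on the log2 scale (edgeR adjusted p = 5.23e-04). MMP14 was at 6.08, 6.19, 4.61 and 5.54 CPM in het1 against 11.3, 18.4, 13.0 and 20.9 CPM in WT (log2 fold change -1.50 ± 0.28, edgeR adjusted p = 3.98e-04), and ADAM19 at 8.72, 9.37, 8.37 and 9.09 CPM in het1 against 25.6, 58.5, 43.2 and 56.5 CPM in WT. ADAM19 changed by -2.37 ± 0.41 on the log2 scale (edgeR adjusted p = 2.73e-04). The part of fibroblasts in these differences was not tested. Of the fibroblast markers 4 were higher and 4 lower in het1 DMSO than in WT DMSO tumours, and all 10 were above 0 in every tumour group. In culture the same sum was 51.3 to 52.7 CPM in het1, 55.7 to 58.8 in het2 and 66.4 to 74.2 in homo cells, against 9.86 to 10.9 CPM in WT cells.

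**Figure D5:**
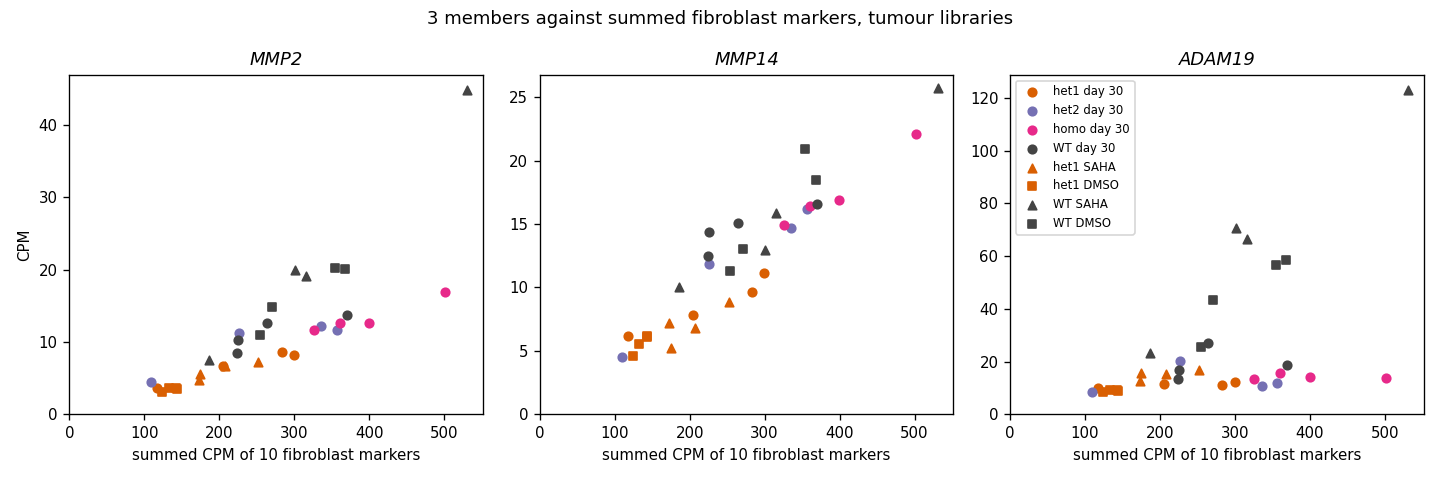
CPM of MMP2, MMP14 and ADAM19 (y axes, from 0) against the summed CPM of 10 fibroblast markers (x axes) in the 32 tumour libraries; each point is a library, colour gives the line (orange het1, purple het2, pink homo, dark grey WT) and shape the experiment (circle day 30, square DMSO, triangle SAHA). WT SAHA replicate 6 is the point at the upper right of each panel, and het1 DMSO tumours sit together at the lower left.

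A list of 35 regulators of these proteases (plasminogen activators and their inhibitors, proprotein convertases, RECK, TFPI2, iRhoms and tetraspanins) was read from the same fits. In cells 12 rose and 11 fell in het1, 21 rose and 7 fell in het2, and 15 rose and 11 fell in homo. These are 65.7%, 80% and 74.3% of the list, beside 62.8%, 68.5% and 70.5% of all genes tested. At day 30, 15 rose and 10 fell in het1, 15 and 9 in het2, and 13 and 10 in homo (71.4%, 68.6% and 65.7% of the list, beside 51.5%, 49.2% and 54.8% of all genes tested). Of the listed genes that were tested, 76.7%, 93.3% and 86.7% were called in cells and 78.1%, 75% and 71.9% at day 30. TSPAN14, a tetraspanin that escorts ADAM10, was at 68.5 CPM in het1, 129.6 in het2 and 52.3 in homo cells, against 228 CPM in WT cells (largest edgeR adjusted p = 6.94e-22). TFPI2, a protease inhibitor of the matrix, rose in all 3, to 546, 1395 and 1439 CPM in het1, het2 and homo cells against 238 CPM in WT cells. FURIN, an activator of membrane-type MMPs, was at 167 CPM in het1, 609.6 CPM in het2 and 347 CPM in homo tumours, against 181 CPM in WT tumours, with no call in het1 (for het2, log2 fold change 1.75 ± 0.07, edgeR adjusted p = 9.25e-14). The convertase PCSK6 was at 34.5 CPM in het1, 72.3 CPM in het2 and 160.3 CPM in homo tumours against 29.4 CPM in WT tumours (for homo, log2 fold change 2.45 ± 0.08, edgeR adjusted p = 2.37e-15). PLAU (urokinase) was at 2.81 CPM in het1 DMSO tumours against 62.3 CPM in WT DMSO tumours (log2 fold change -4.47 ± 0.27, edgeR adjusted p = 9.33e-09). SAHA raised 9 of the regulators and lowered 1 in het1 tumours (28.6% of the list and 31.2% of those tested, beside 16.8% of all genes tested). RECK, a membrane-bound MMP inhibitor, was at 21.9 CPM with SAHA against 16.3 CPM with DMSO (log2 fold change 0.42 ± 0.06, edgeR adjusted p = 1.84e-04).

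A list of 25 known substrates was read in the same way. In cells 10 rose and 11 fell in het1, 10 rose and 9 fell in het2, and 7 rose and 15 fell in homo, and at day 30 there were 8 and 12 in het1, 12 and 9 in het2 and 11 and 10 in homo. These are 84%, 76% and 88% of the list in cells, beside 62.8%, 68.5% and 70.5% of all genes tested, and 80%, 84% and 84% at day 30, beside 51.5%, 49.2% and 54.8%. Of the listed substrates that were tested, 95.5%, 86.4% and 100% were called in cells and 83.3%, 87.5% and 87.5% at day 30. VCAN (versican), the substrate of the ADAMTS proteoglycanases, fell in cells of all lines, to 0.0533 CPM in het1, 2.16 in het2 and 0.459 in homo against 93.1 CPM in WT (largest edgeR adjusted p = 2.76e-34). FN1 (fibronectin) fell to 47.7 CPM in het1, 525 CPM in het2 and 21.1 CPM in homo cells, against 956 CPM in WT cells. CD44, a substrate of ADAM10 and MMP14, was at 253 CPM in het1 and 254 CPM in homo day 30 tumours, against 769.8 CPM in WT (log2 fold changes -1.61 and -1.60). In het2 tumours CD44 was higher than in WT, at 914 CPM (log2 fold change 0.25 ± 0.07, edgeR adjusted p = 0.00567). CDH1 (E-cadherin), cut by MMP7 and ADAM10, fell with SAHA in het1 tumours to 112 CPM against 164 CPM with DMSO (log2 fold change -0.55 ± 0.08, edgeR adjusted p = 1.78e-04).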

How the data were processed

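Gene counts were made by the authors and deposited as 3 tables (cells, day 30 tumours, treated tumours). Per the labels, libraries were stranded and made from polyA RNA; tools named in the submitters' processing notes are HISAT2 and HTSeq, on hg38. No source used here gives their versions, the annotation or the strand setting, which leaves antisense neighbours and close copies uncertain. Every identifier, 58721 per table, was found in GENCODE 29 (GRCh38), the source of symbols, coordinates and exon lengths.

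The tables were fitted separately in edgeR 4.0.16 (R 4.3.3; all groups of a table, TMM, filterByExpr, robust quasi-likelihood test), which tested 21704, 22533 and 22586 genes, and an adjusted p under 0.05 counted as a call. Where a group had 1 to 3 counts, the ratio of summed counts carries a 95% exact binomial interval, which covers counting error only because reads are not independent molecules. The fit was tested on simulated counts with known changes.

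Members and lists were chosen with earlier results of these data known. Members described by library were up to 4 with the greatest rises and falls per comparison at a mean of at least 1 CPM, the 8 highest per kb, those called in 1 direction in all 3 lines in cells and at day 30, and the TIMPs; from the lists, up to 2 per direction. MMP3, MMP9, MMP13, MMP14, MMP17, MMP24OS, MMP26, ADAM17, ADAM19, ADAM33, ADAMTS2, ADAMTS14 and ADAMTS20 were chosen after their values were seen. Alternatives tried were DESeq2 1.42.0, RLE factors, other filters, fits of only the groups compared, a replicate block, leaving out single libraries and, added after seeing the data, leaving out WT SAHA replicates 4 and 6. Of 60 library pairs within groups, 0 were identical.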

Additional observations from a re-analysis of the deposited data

Results flagged for a closer look

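Dixon's ratio was tested in 222 sets, each of 1 described member in 1 group of 4 tumour libraries at a mean of at least 1 CPM. In 8 sets a library lay far from the other 3. Chance gives about 1 in 20 such sets, and the 8 flagged here are no more than that. They were ADAM22 in het1 DMSO replicate 4 (15.1 CPM), ADAMTS13 in homo day 30 replicate 1 (2.10 CPM), ADAMTS7 in WT DMSO replicate 2 (1.51 CPM) and homo day 30 replicate 4 (12.1 CPM), ADAMTS9 in homo day 30 replicate 4 (8.70 CPM), MMP10 in WT day 30 replicate 1 (1.17 CPM), MMP11 in het1 SAHA replicate 3 (6.74 CPM) and MMP2 in het2 day 30 replicate 4 (4.52 CPM).

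The SAHA effect differed between het1 and WT, by edgeR's interaction test, for ADAMTS9 (-1.19, adjusted p = 0.00154), TIMP2 (0.42, adjusted p = 0.0159) and ADAMTSL5 (0.79, adjusted p = 0.0257), all on the log2 scale.

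Changes against WT with opposite directions in tumours and cells, each called and without overlap of libraries, were as follows, as log2 fold changes in tumours and then in cells; the difference itself was not tested. In het1 they were ADAM19 (-0.78 and 0.82), ADAMTS15 (1.30 and -0.49) and TIMP4 (0.63 and -1.35). In het2 they were ADAM10 (0.65 and -0.13), ADAM9 (0.54 and -0.21), TIMP4 (0.49 and -0.45) and ADAMTS16 (-2.99 and 1.98). In homo they were ADAM10 (0.77 and -0.48), ADAM9 (0.78 and -0.52), MMP15 (0.76 and -0.31), MMP24 (0.25 and -4.31), MMP28 (1.07 and -2.25), ADAM32 (1.24 and -1.49) and ADAMTS1 (-2.12 and 0.81).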

How the results depend on the processing

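The counts of members called moved by at most 1.5 times with RLE size factors, DESeq2, no filter and a mean of at least 1 CPM in all 12 comparisons, and with only the groups compared in the 11 where it could be run apart (the interaction uses all 4 treated groups). No called member changed sign. With a replicate block the SAHA count in het1 was 3 and the interaction count 0, against 14 and 3. Residuals of equally numbered libraries correlated by -0.112 to 0.068 (cells), -0.191 to 0.168 (day 30) and -0.151 to 0.134 (treated). The labels do not say whether the numbers pair libraries, and correlations over all genes tested cannot settle it, since pairing could affect only some genes. Without WT SAHA replicates 4 and 6 the interaction count was 5. Leaving out 1 library gave 6 to 12 calls for SAHA in het1, 2 to 4 for the interaction, 0 to 0 for SAHA in WT, 41 to 43, 40 to 43 and 45 to 48 for het1, het2 and homo cells, 36 to 38, 28 to 31 and 34 to 36 for their day 30 tumours, 42 to 44 for het1 DMSO, and 35 to 38 and 35 to 43 for homo against the het lines in cells and tumours. Of the calls for het1, het2 and homo against WT, 41 of 41, 37 of 43 and 43 of 46 in cells and 35 of 37, 26 of 30 and 32 of 34 at day 30 held under every alternative, as did 36 of 45 for het1 DMSO, 3 of 14 for SAHA in het1 and 0 of 3 for the interaction. Without WT DMSO replicate 8, which held the only ADAMTS3 count of its group, the fitted log2 fold change of ADAMTS3 in het1 DMSO was 8.50 in place of 6.87. Depth limits the 26 members below 1 CPM.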
